A study of Mus musculus with 6 samples.

Results

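A set of 10 genes, 4 ligands and 6 receptors of the tumor necrosis factor (TNF) family, was examined in mouse bone marrow-derived monocytes (BMDM) and brainstem microglia (BSM). The ligands were Tnf, Tnfsf10, Tnfsf12 and Tnfsf13b. The receptors were Tnfrsf1a, Tnfrsf1b, Tnfrsf11a, Tnfrsf17, Tnfrsf21 and Cd40. The genes were taken by symbol, with no threshold on their values, and all 10 were found both among the 35237 genes of the Cufflinks table and among the 36536 entries of the ALEXA-Seq table.

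TNF family ligands are membrane proteins that act as trimers, on the cell surface or after shedding, and bind receptors on neighboring cells. The receptors carry no enzyme activity of their own. They recruit TRAF adaptors, which lead to NF-κB and MAP kinase signaling, or, where they hold a death domain, adaptors that can lead to caspase activation. In macrophages and microglia, TNF itself is a major inflammatory cytokine that is made on activation.

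RNA-Seq was performed on 6 libraries, 3 of BMDM and 3 of BSM, each from cells sorted from pooled C57BL/6 mice at 6 weeks of age. BMDM were gated as CD11b+ CD45high CD115+ Ly6G- cells and BSM as CD11b+ CD45low CD115low Ly6G- cells, so that Ly6G+ granulocytes were gated out of both. In each cell type the labels give replicate 1 as male and replicates 2 and 3 as female. Both tables were made from the same libraries, so ALEXA-Seq is a second quantification and not a second set of samples.

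The labels were checked against marker genes. The summed FPKM of 6 monocyte markers ranged from 1451 to 2896 in BMDM and from 4.69 to 7.02 in BSM. For 6 microglia markers the sum was between 17.3 and 19.3 in BMDM and between 720.7 and 810.4 in BSM. Granulocyte markers summed to 46.5, 331.8 and 83.7 in BMDM 1, 2 and 3, and to at most 0.116 in BSM. BMDM 2 therefore had the highest sum of this list. Mpo (181.0), Ngp (77.1) and Elane (55.98) were the largest values in it. Ly6g was at 0.293 in BMDM 2 and at 0 in BMDM 1 and 3, so the sum does not show which cells held these transcripts. BSM 1 also stood apart, with 5155 genes at an FPKM of 1 or more against 6335 to 7898 in the other libraries. In the study's RNA quality records this library has the lowest RNA concentration and integrity number. The calls of several members hinge on it, and the part of RNA quality in them was not tested. In the study's records BMDM 2 had the fewest sorted cells and the lowest share of reads mapped. The sum of FPKM over every gene was 163199 to 194184 in BMDM, but 68288 to 75021 in BSM. FPKM were used as deposited, and the median gene tested was shifted toward BMDM by 0.81 on the log2 scale.

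Members were compared by limma on log2(FPKM + 1), over 6364 genes that reached an FPKM of 3 in at least 1 library. A positive log2 fold change means higher in BMDM. Among the ligands only Tnfsf12 passed this minimum, and among the receptors Tnfrsf1a, Tnfrsf1b, Tnfrsf11a and Tnfrsf21. Of these 5 genes, 2 differed between the cell types at an adjusted p-value under 0.05. Tnfsf12 was higher in BMDM and Tnfrsf11a in BSM. Each passed the minimum only through the group where it was higher, so its test was not free of that selection. Tnfsf12 reached at most 2.67 in BSM and Tnfrsf11a at most 1.95 in BMDM. With no FPKM minimum both were called too (adjusted p = 0.00173 and 0.000677, limma), beside 18.3% of 21167 genes in either direction. Over all 6364 genes tested with the minimum, 45.3% were called higher in BMDM and 9.22% higher in BSM. The groups did not overlap in 4 of the 5 members tested, against 66.8% of all genes tested. A call toward BMDM was thus far more common among all genes than a call toward BSM.

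**Figure D1:**
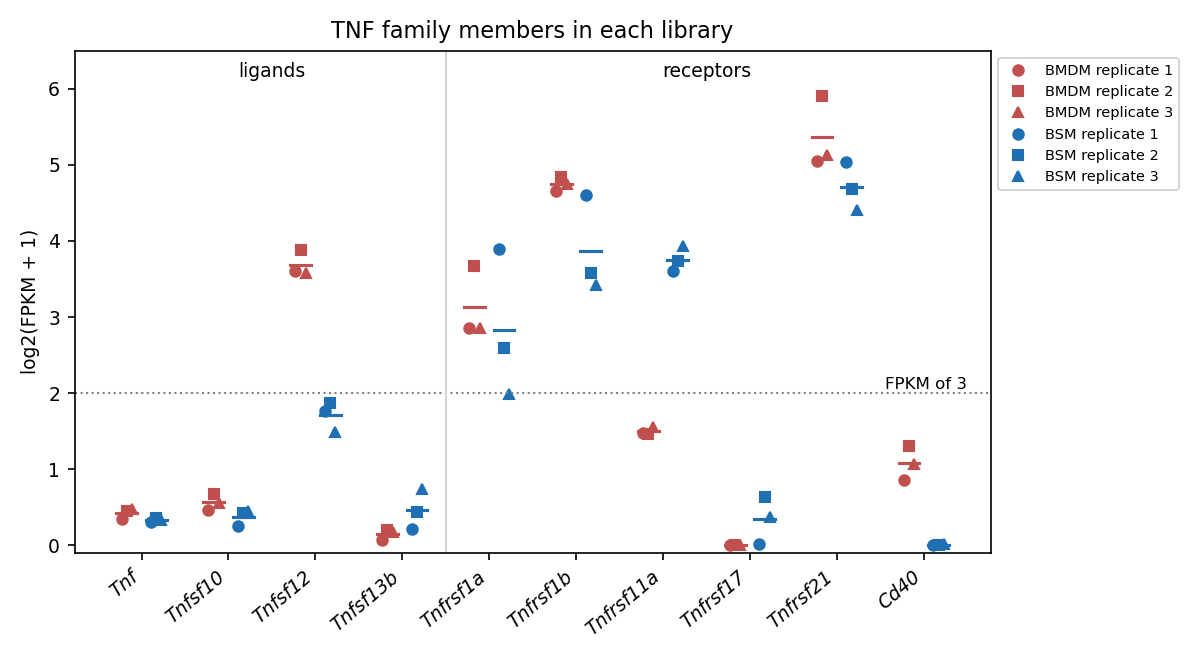
Expression of the 10 members as log2(FPKM + 1), with 1 point for each of the 3 BMDM (red) and 3 BSM (blue) libraries, marker shape for the replicate number, and a bar for the mean of the log2 values. The dotted line marks the FPKM of 3 needed for testing. Tnfsf12 and Cd40 lie higher in BMDM and Tnfrsf11a higher in BSM, while BSM 1 lies above BSM 2 and 3 for Tnfrsf1a and Tnfrsf1b.

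Tnf, which encodes the cytokine that names the family, lies at chr17:35336326-35338952 (mm9). Its FPKM was 0.266, 0.370 and 0.394 in BMDM 1, 2 and 3, and 0.235, 0.284 and 0.258 in BSM 1, 2 and 3. The groups overlapped, and all 6 libraries were under an FPKM of 1. The mean was 0.343 ± 0.0682 in BMDM and 0.259 ± 0.0245 in BSM (SD, n = 3 each; p = 0.2 by an exact two-sided permutation test, in which 3 libraries against 3 cannot give less than 0.1). The ALEXA-Seq values also overlapped, at 7.16 ± 1.34 in BMDM and 6.19 ± 0.460 in BSM. Fitted with no FPKM minimum, where 18.3% of 21167 genes were called in either direction, Tnf had a log2 fold change of 0.09 (adjusted p = 0.533, limma).

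Tnfsf10 encodes TRAIL, a ligand of death receptors, and lies at chr3:27215999-27238587 (mm9). Its FPKM was 0.375, 0.598 and 0.475 in BMDM and 0.188, 0.338 and 0.366 in BSM. The lowest BMDM library was just above the highest BSM library. The means were 0.483 ± 0.112 and 0.297 ± 0.0957 (SD, n = 3 each; exact permutation p = 0.1). In ALEXA-Seq the groups overlapped (exact permutation p = 0.4), and with no minimum the log2 fold change of the FPKM was 0.19 (adjusted p = 0.408, limma).

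Tnfsf13b encodes BAFF, a survival factor of B cells made by myeloid cells. The gene lies at chr8:10006843-10037845 (mm9). Its FPKM was 0.0508, 0.146 and 0.131 in BMDM, and 0.165, 0.352 and 0.666 in BSM. All BSM libraries were higher than all BMDM libraries in this table and in ALEXA-Seq, where the values were 0.784, 2.37 and 2.18 in BMDM and 2.54, 6.11 and 11.02 in BSM. The mean FPKM was 3.61-fold higher in BSM (0.394 ± 0.253 against 0.109 ± 0.0512; SD, n = 3 each; exact permutation p = 0.1). With no minimum, the log2 fold change was −0.32, which was not called (adjusted p = 0.1999, limma). The spread within BSM was wide at this low level, and the number of reads behind the values is not given.

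Tnfsf12 encodes TWEAK, a ligand expressed by monocytes and macrophages that acts on the receptor Fn14 (Tnfrsf12a). Of the 4 member ligands, it was the only one above an FPKM of 1. Its FPKM was 11.1, 13.7 and 10.99 in BMDM and 2.41, 2.67 and 1.81 in BSM. Each BMDM library was well above each BSM library. The mean FPKM was 5.20-fold higher in BMDM (11.9 ± 1.51 against 2.30 ± 0.440; SD, n = 3 each), with a log2 fold change of 1.98 (standard error, SE, 0.23, 95% interval 1.44 to 2.51, adjusted p = 0.000349, limma). It was called in all 16 alternatives tried, with a log2 fold change between 0.89 and 2.34.

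The ALEXA-Seq values of Tnfsf12 were less separated. They were 33.8, 107.6 and 41.8 in BMDM, and 34.0, 23.3 and 15.5 in BSM. BSM 1 was at the level of BMDM 1, and BMDM 2 was 2.84-fold above the mean of BMDM 1 and 3. The log2 fold change was 1.18 (SE 0.53, adjusted p = 0.106, limma), 1.45 without BSM 1 (adjusted p = 0.0479, limma), and 0.68 without BMDM 2 (adjusted p = 0.289, limma). In ALEXA-Seq, 37.1% of genes tested were called higher in BMDM and 10.9% higher in BSM.

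The row named Tnfsf12 in the Cufflinks table covers chr11:69496079-69509600 (mm9), a span of 13522 bases. This is the length of the readthrough gene Tnfsfm13 in GENCODE M21, which joins Tnfsf12 to its neighbor Tnfsf13. Tnfsf12 alone spans 9600 bases and Tnfsf13, which encodes APRIL, 2939 bases. The Cufflinks table lists no separate Tnfsf13, so transcripts of the pair cannot be told apart there. ALEXA-Seq has 3 entries at this locus. Those for Tnfsf13 were 5.75, 46.6 and 7.27 in BMDM and 21.5, 0.944 and 1.09 in BSM, and those for the readthrough 23.1, 5.64 and 24.4 in BMDM and 0, 15.1 and 7.93 in BSM. Libraries high in one entry were low in the other. Summed over the 3 entries, the locus had 62.6, 159.8 and 73.5 in BMDM and 55.5, 39.4 and 24.5 in BSM. The sums did not overlap, and their mean was 2.48-fold higher in BMDM (98.6 ± 53.2 against 39.8 ± 15.5; SD, n = 3 each; exact permutation p = 0.1).

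Tnfrsf11a encodes RANK, the receptor of RANKL (Tnfsf11), which is best known for driving monocyte-lineage precursors to become osteoclasts. It lies at chr1:107677300-107744558 (mm9). Its FPKM was 1.78, 1.74 and 1.95 in BMDM and 11.2, 12.3 and 14.2 in BSM. The BMDM libraries were close to each other, and every BSM library was far above them. The mean FPKM was 6.89-fold higher in BSM (12.6 ± 1.54 against 1.82 ± 0.109; SD, n = 3 each), and the log2 fold change was −2.26 (SE 0.22, 95% interval −2.76 to −1.75, adjusted p = 0.000133, limma). ALEXA-Seq gave 27.2, 29.2 and 29.0 in BMDM and 203.2, 221.5 and 254.4 in BSM, which is 7.95-fold higher in BSM, with a log2 fold change of −2.94 (SE 0.23, adjusted p = 0.000133, limma). Tnfrsf11a was called higher in BSM in all 16 alternatives for FPKM, from −3.27 to −2.17, and all 12 for ALEXA-Seq, from −4.20 to −2.85. Its ligand Tnfsf11 was at an FPKM of at most 0.00828 in BMDM and at 0 in BSM, and Tnfrsf11b, which encodes the soluble decoy receptor osteoprotegerin, was listed at 0 in every library.

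The sequences just upstream of Tnfrsf11a, the receptor with the largest difference among those tested, and of Tnf, the low founding ligand, are shown to compare their promoters. Both are the 250 bases before the gene's start in RefSeq (GRCm38.p6), written 5′ to 3′ on the gene's strand. Capitals mark the GC box GGGCGG, which is bound by Sp1, or its reverse complement CCGCCC, and the TATA box TATAAA.
Tnfrsf11a, chr1:105780473-105780722, plus strand: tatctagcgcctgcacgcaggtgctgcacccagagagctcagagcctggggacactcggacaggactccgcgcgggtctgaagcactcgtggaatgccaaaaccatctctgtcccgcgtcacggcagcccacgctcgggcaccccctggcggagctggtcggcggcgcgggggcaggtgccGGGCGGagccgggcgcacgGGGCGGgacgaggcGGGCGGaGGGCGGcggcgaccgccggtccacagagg
Tnf, chr17:35202008-35202257, minus strand: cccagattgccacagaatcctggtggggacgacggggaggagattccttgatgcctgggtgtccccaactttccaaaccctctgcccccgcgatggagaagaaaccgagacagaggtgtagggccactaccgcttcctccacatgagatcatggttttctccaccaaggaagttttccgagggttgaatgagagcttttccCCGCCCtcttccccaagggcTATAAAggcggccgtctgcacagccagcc
The Tnfrsf11a window was 73.6% G and C and held 4 GC boxes and no TATA box. The Tnf window was 57.6% G and C, with 1 GC box and a TATA box that began 29 bases before the start. Over 32851 windows of this length, the median was 52.4% G and C, 32.7% held a GC box and 12.4% a TATA box, both strands searched. The motifs did not overlap each other in either window. A match of letters is a description and not a site of binding. Of the other members, 6 had an entry in the RefSeq table and were searched too. Among these only the window of Tnfrsf17 held a TATA box, and those of Tnfrsf1b, Tnfrsf17 and Tnfrsf21 held 1 or 2 GC boxes.

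Tnfrsf1a and Tnfrsf1b encode the receptors of TNF. TNFR1 has a death domain and is found on most cells, whereas TNFR2 binds TRAF adaptors directly and is prominent on leukocytes. Tnfrsf1a (chr6:125299380-125312502, mm9) had an FPKM of 6.26, 11.8 and 6.24 in BMDM and 13.9, 5.05 and 2.95 in BSM. The highest and the lowest of the 6 values were both BSM libraries, and BSM 1 was 3.47-fold above the mean of BSM 2 and 3. The means were 8.09 ± 3.18 and 7.30 ± 5.81 (SD, n = 3 each), with a log2 fold change of 0.30 (SE 0.49, adjusted p = 0.620, limma). Its 95% interval, −0.84 to 1.45, includes more than a 2-fold difference toward BMDM. Without BSM 1 the log2 fold change was 0.84 (adjusted p = 0.0659, limma), and without BMDM 2 it was 0.03 (adjusted p = 0.968, limma). In ALEXA-Seq the change of 0.67 (adjusted p = 0.321, limma) became 1.21 without BSM 1 and was then called (adjusted p = 0.0218, limma).

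Tnfrsf1b (chr4:144803366-144836773, mm9) was higher in every BMDM library, with an FPKM of 24.3, 27.6 and 25.9 against 23.2, 10.96 and 9.69 in BSM. BSM 1 was again the highest of its group, nearly at the level of BMDM, and was 2.25-fold above the mean of BSM 2 and 3. The means were 25.9 ± 1.69 and 14.6 ± 7.47 (SD, n = 3 each). The log2 fold change of 0.88 (SE 0.33, 95% interval 0.11 to 1.66) narrowly missed the threshold (adjusted p = 0.0541, limma). Without BSM 1 it was 1.25 and was called (adjusted p = 0.000885, limma). In ALEXA-Seq the groups overlapped, and the log2 fold change was 0.80 over all libraries (adjusted p = 0.0957, limma) and 1.20 without BSM 1 (adjusted p = 0.000787, limma).

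Tnfrsf21 encodes death receptor 6, which also acts in the nervous system. It lies at chr17:43153504-43226137 (mm9). It had the highest mean of the 10 members in both cell types, with an FPKM of 32.3, 58.8 and 34.1 in BMDM and 31.8, 24.6 and 20.2 in BSM. BMDM 2 stood out, and BMDM 1 and BSM 1 were almost equal. The means were 41.7 ± 14.8 and 25.6 ± 5.87 (SD, n = 3 each), and the log2 fold change was 0.66 (SE 0.31, 95% interval −0.05 to 1.36, adjusted p = 0.101, limma). Without BSM 1 it was 0.82 and was called (adjusted p = 0.0453, limma). Without BMDM 2, the library with the highest sum of granulocyte markers, it fell to 0.39 (adjusted p = 0.249, limma). BMDM 2 was also the library with the fewest sorted cells and the lowest share of reads mapped. The part of granulocytes, of other cells that hold these transcripts, or of library quality in the value of Tnfrsf21 was not tested.

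**Figure D2:**
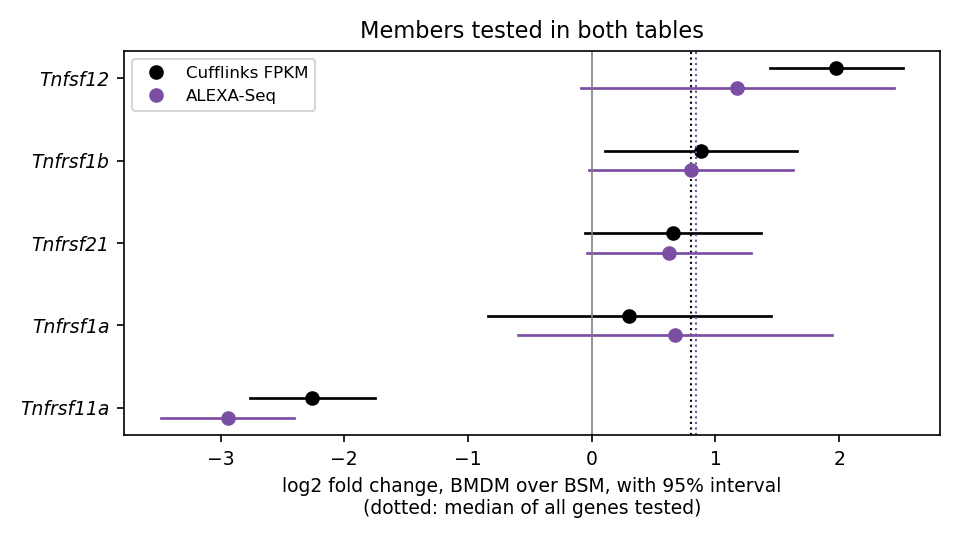
Log2 fold change of BMDM over BSM with its 95% interval for the 5 members tested in both tables, in FPKM (black) and ALEXA-Seq (purple), with dotted lines at the medians of all genes tested, 0.81 and 0.84. The interval of Tnfrsf11a lies below 0 in both tables. Those of Tnfsf12 and Tnfrsf1b lie above 0 in FPKM only, although Tnfrsf1b was not called after adjustment. The points of Tnfrsf1b, Tnfrsf21 and Tnfrsf1a lie near or to the left of the medians, at 0.88, 0.66 and 0.30 in FPKM.

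The scale of the libraries mattered for these receptors, and the median gene was itself higher in BMDM. After quantile normalization that median was 0.02, after upper quartile scaling 0.14, and with every library scaled to the same sum of FPKM it was −0.22. As deposited, 2883 genes were called higher in BMDM and 587 higher in BSM, against 1378 and 1227 after quantile normalization. Tnfrsf1a turned from 0.30 to −0.37, −0.43 and −0.83 under quantile, upper quartile and same sum scaling. Tnfrsf21 likewise turned from 0.66 to −0.12, −0.17 and −0.62. Tnfrsf1b was at 0.12, 0.07 and −0.36. None of these values was called, and the direction of the 3 receptors between the cell types therefore depends on the scaling. In FPKM, Tnfsf12 stayed higher in BMDM and Tnfrsf11a higher in BSM under each of them. In ALEXA-Seq, Tnfrsf11a also stayed higher in BSM, but Tnfsf12 went to 0.49 under quantile normalization (adjusted p = 0.452, limma) and to −0.07 under same sum scaling (adjusted p = 0.910, limma).

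**Figure D3:**
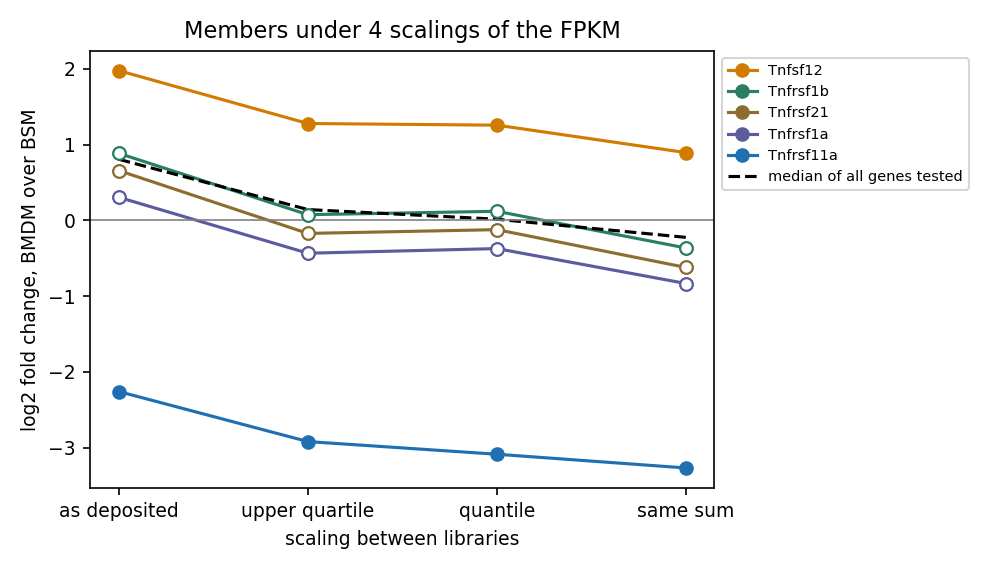
Log2 fold change of BMDM over BSM for the 5 members tested, for FPKM as deposited and under 3 other scalings of the libraries. Filled points were called at an adjusted p-value under 0.05 and open points were not, and the dashed line is the median of all genes tested. Tnfsf12 remains above 0 and Tnfrsf11a below it in every scaling, while the other 3 fall with the median and end below 0.

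Cd40 encodes the receptor through which antigen-presenting cells receive help from T cells. It lies at chr2:164881127-164898448 (mm9). Its FPKM was 0.817, 1.48 and 1.10 in BMDM, and 0, 0 and 0.0154 in BSM. The groups were fully separated, although BMDM was under the minimum of 3 as well. With a minimum of 1, under which 37.2% of 9637 genes were called higher in BMDM, the log2 fold change was 1.07 (SE 0.21, adjusted p = 0.00499, limma). Cd40 passed that minimum only through BMDM, the group where it was higher. With no FPKM minimum it was also called (1.07, SE 0.17, adjusted p = 0.0111, limma), beside 18.3% of 21167 genes in either direction. ALEXA-Seq gave 7.67, 17.04 and 10.5 in BMDM and 0.0331, 0.165 and 0.524 in BSM, a mean 48.8-fold higher in BMDM, and its log2 fold change with no minimum was 3.31 (SE 0.56, adjusted p = 0.0113, limma). The ligand Cd40lg was listed at 0 in every library. Dendritic cells and B cells also carry CD40. The 6 dendritic cell markers summed to an FPKM of 2.60 to 5.23 in BMDM and 0.917 to 1.18 in BSM. Clec9a, at 1.10 to 2.41, and Flt3, at 0.686 to 1.90, were the highest in BMDM. Bst2 was also higher in BMDM, whereas Xcr1 overlapped between the groups. Zbtb46 and Itgax overlapped too, with means of 0.468 and 0.317 in BSM above 0.243 and 0.188 in BMDM. Of the B cell markers, Ms4a1 was at most 0.157 in any BMDM library, and Cd79a was at 0.115, 2.22 and 0.397 in BMDM 1, 2 and 3, highest in the library where Cd40 was highest. Fewer cells of a type and less RNA in each cell cannot be told apart in bulk samples such as these, and the part of these cells was not tested.

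Tnfrsf17 encodes BCMA, a receptor of BAFF and APRIL that is characteristic of plasma cells. It lies at chr16:11313905-11320167 (mm9). It was listed at 0 in all 3 BMDM libraries and had an FPKM of 0.0109, 0.549 and 0.292 in BSM. ALEXA-Seq was 0 in BMDM and 0.277, 16.2 and 6.71 in BSM. BSM 1 was thus almost at 0 in both tables, and a difference between the cell types rests on BSM 2 and 3. With no minimum, the log2 fold change of the FPKM was −0.34 and was not called (adjusted p = 0.194, limma). Of the plasma and B cell markers, Xbp1 was at 16.7, 15.2 and 13.7 and Prdm1 at 9.40, 2.14 and 1.96 in BSM 1, 2 and 3, and both are expressed by other cells as well. Jchain was listed at 0 in every library, and Ms4a1, Pax5 and Sdc1 were at 0 in every BSM library. Lyve1, a marker of perivascular macrophages, was at 0, 1.87 and 0.565 in BSM 1, 2 and 3, and at most 0.0117 in BMDM. Mrc1, Cd163 and Pf4, also on this list, overlapped between the groups and had the higher mean in BMDM. The 4 perivascular markers summed to 0.544, 4.14 and 2.36 in BSM 1, 2 and 3. In BMDM 1, 2 and 3, where Tnfrsf17 was at 0, they summed to 1.38, 1.61 and 2.58. The part of perivascular macrophages in the Tnfrsf17 values was not tested.

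The members took different orders in the cell types. FPKM, which is scaled for transcript length, was compared between genes within a cell type. In BMDM the mean level fell from Tnfrsf21 through Tnfrsf1b, Tnfsf12, Tnfrsf1a, Tnfrsf11a, Cd40, Tnfsf10, Tnf and Tnfsf13b to Tnfrsf17. Of these neighbors, Tnfsf12 and Tnfrsf1a overlapped, and so did Tnfsf10 and Tnf. In BSM it fell from Tnfrsf21 through Tnfrsf1b, Tnfrsf11a, Tnfrsf1a, Tnfsf12, Tnfsf13b, Tnfsf10, Tnfrsf17 and Tnf to Cd40. Each of the first 3 overlapped with the next, as did Tnfsf13b, Tnfsf10, Tnfrsf17 and Tnf. Tnfrsf11a was thus among the leading receptors of BSM, with 12.6 ± 1.54 (SD, n = 3), and far below them in BMDM.

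The gene with the most similar profile over the 6 libraries, by Euclidean distance of centered log2(FPKM + 1), was Sbf2 for Tnfrsf11a (distance 0.242), Stk24 for Tnfsf12 (0.182) and Lipa for Tnfrsf1b (0.125). For Tnfrsf21 it was Ano6 (0.148), and for Tnfrsf1a it was Ptms (0.288). Ptms was at an FPKM of 28.2 in BSM 1 and at 8.75 and 7.08 in BSM 2 and 3. Lipa was at 15.3 in BSM 1 and at 7.58 and 5.87 in the others. These genes were selected for their likeness over the same libraries.

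The rest of the family was examined as lists of 14 other ligands, 22 other receptors and 22 signaling proteins. Of the 13 other ligands listed in the Cufflinks table, all were under an FPKM of 1 in every library and none was tested. Of these, Tnfsf4, Cd40lg, Fasl, Cd70 and Tnfsf15 were at 0 throughout. Tnfsf14, which encodes LIGHT, was at 0 in BSM and between 0.154 and 0.468 in BMDM. The row named Tnfsf12 was therefore the single ligand row of the Cufflinks table above an FPKM of 1 among those listed. It may also hold transcripts of Tnfsf13, which has no row of its own there.

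Of the 22 other receptors 6 were tested and 1 was called, higher in BSM. This was Tnfrsf23, a decoy receptor of TRAIL, with an FPKM of 0.929, 1.29 and 0.539 in BMDM and 3.15, 3.53 and 3.16 in BSM. Every BSM library was above every BMDM library, and the log2 fold change was −1.18 (SE 0.26, adjusted p = 0.00723, limma), against −2.11 in ALEXA-Seq (adjusted p = 0.0130, limma). It passed the FPKM minimum of 3 only through BSM, and was called with no minimum as well (adjusted p = 0.0151, limma). Tnfrsf23 lies beside related receptor genes, and reads shared between them may have been split. Cd27, Ltbr, Relt, Tnfrsf13b and Tnfrsf22 were not called in FPKM. Tnfrsf14 was under the FPKM minimum, but was called higher in BMDM in ALEXA-Seq (3.01, SE 0.87, adjusted p = 0.0272, limma), as were 37.1% of genes tested there. Its ALEXA-Seq values were 8.12, 44.8 and 9.99 in BMDM and 0, 2.91 and 1.23 in BSM. The median log2 fold change of the 6 receptors tested in FPKM was 0.08, against 0.81 over all genes tested. Tnfrsf13b encodes TACI, which also binds BAFF and APRIL. It was at 12.4, 26.9 and 16.95 in BMDM and 11.6, 13.3 and 9.28 in BSM, far above Tnfrsf17, and the groups overlapped. Tnfrsf12a, the receptor of TWEAK, reached at most 0.0355 in BMDM and 0.122 in BSM.

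Of the 22 signaling proteins 16 were tested, and 3 were called higher in BMDM and 1 higher in BSM. Their median log2 fold change was 0.50, against 0.81 over all genes tested, of which 45.3% were called higher in BMDM and 9.22% higher in BSM. Birc3 encodes cIAP2, a ubiquitin ligase of TNF receptor complexes. Its FPKM was 11.6, 13.4 and 13.2 in BMDM and 3.53, 2.94 and 3.16 in BSM, without overlap (log2 fold change 1.703, SE 0.21, adjusted p = 0.000502, limma). Ripk1, the kinase recruited to TNFR1, was at 7.96, 8.46 and 9.26 in BMDM and at 1.12, 3.804 and 4.02 in BSM (1.36, SE 0.36, adjusted p = 0.0139, limma). BSM 1 was the lowest for Ripk1, although it was the highest of its group for Tnfrsf1a. Traf6, an adaptor of RANK and CD40, was at 3.40, 3.84 and 4.05 in BMDM and 2.27, 1.91 and 1.68 in BSM (0.69, SE 0.23, adjusted p = 0.0335, limma), but turned to −0.041 and −0.27 under quantile and same sum scaling. Ripk1 kept its direction there but was not called, and Birc3 was not called under same sum scaling (0.58, adjusted p = 0.0642, limma). The call of Ripk1 was also lost without BMDM 2 (adjusted p = 0.0518, limma) or BMDM 3 (adjusted p = 0.0595, limma). That of Traf6 was lost without any 1 library other than BSM 1 (adjusted p = 0.0567 to 0.127, limma) and in ALEXA-Seq (0.88, adjusted p = 0.0575, limma). Traf6 passed the FPKM minimum of 3 only through BMDM, and was called with no minimum as well (adjusted p = 0.0378, limma).

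Cflar encodes cFLIP, which restrains caspase-8 at death receptors. Its FPKM was 15.2, 16.4 and 16.0 in BMDM and 44.9, 42.1 and 34.1 in BSM. All BSM libraries were higher, with a log2 fold change of −1.28 (SE 0.22, adjusted p = 0.00201, limma). It was called in all 16 alternatives for FPKM, but in ALEXA-Seq the log2 fold change was −0.53 and was not called (adjusted p = 0.121, limma). The remaining 12 tested signaling proteins were not called in FPKM, although Map3k7 was called higher in BMDM in ALEXA-Seq (0.82, adjusted p = 0.0262, limma). Casp8 was at 29.2 ± 2.56 in BMDM and 22.7 ± 4.69 in BSM (SD, n = 3 each). Over the 3 lists, 22 genes were tested, 3 were called higher in BMDM and 2 higher in BSM, beside 45.3% and 9.22% of all genes tested.

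**Figure D4:**
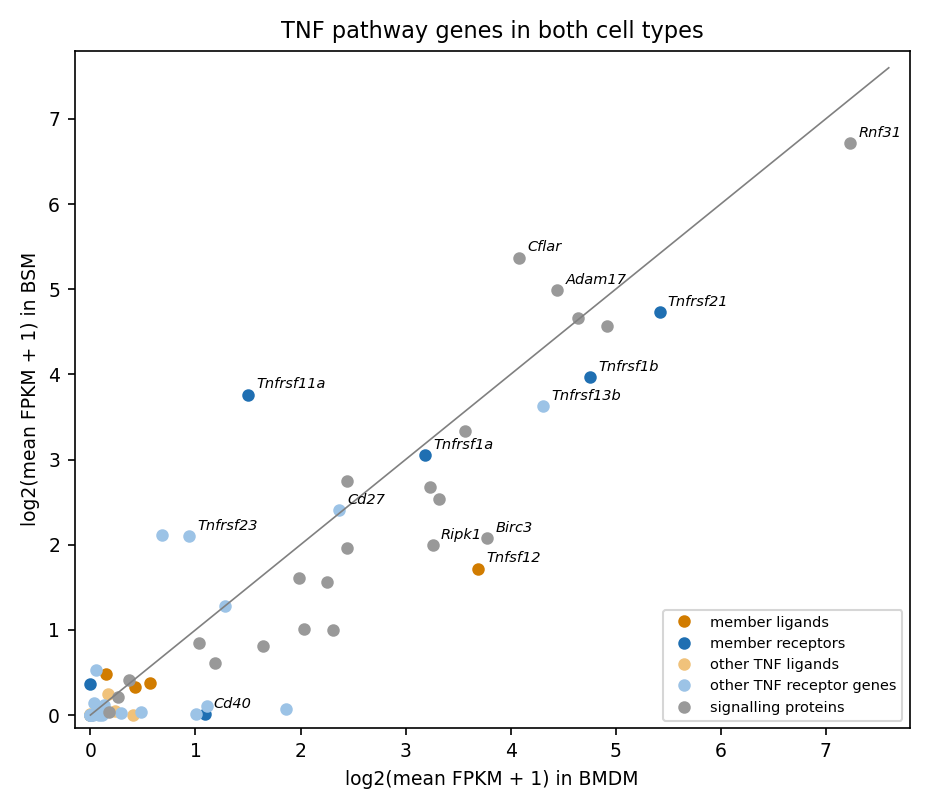
Mean log2-scaled FPKM of TNF family ligands, receptors and signaling proteins in BMDM (x axis) and BSM (y axis), as log2(mean FPKM + 1) of 3 libraries each, with the line of equal levels. Tnfrsf11a, Tnfrsf23 and Cflar lie above the line, Tnfsf12, Birc3 and Cd40 below it, and ligands other than Tnfsf12 crowd near the origin in both cell types.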

How the data were processed

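RNA from sorted cells was amplified with the Ovation RNA-Seq method and sequenced as paired ends. The submitters' processing notes name CASAVA 1.7.0, TopHat 1.3.1, Bowtie 0.12.7, Cufflinks 1.0.3 and mm9. The authors deposited Cufflinks FPKM, scaled for transcript length and mapped fragments, and an ALEXA-Seq expression signal on a linear scale, whose normalization is not given in the sources used here. Neither table gives whole reads, so the number of reads behind a single value is not given and no read-based interval was computed. The study lists the mapped reads of each library, which were not used here.

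Genes that reached an FPKM of 3 in 1 library or more were compared on log2(FPKM + 1) with limma 3.58.1 in R 4.3.3, with a mean-variance trend and Benjamini-Hochberg adjustment, and were called at an adjusted p-value under 0.05. As many genes, those with the highest signal, were tested in ALEXA-Seq. Changes on this scale understate those of low genes. Exact permutation tests were two-sided. Single values were tabulated with pandas 2.3.3 in Python 3.11.15.

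Members and lists were chosen with earlier results of these data known. The rule was to name all members, of the other lists the genes called, and the gene nearest in profile to each member tested. Beyond it, Tnfsf11, Tnfsf14, Tnfrsf11b, Tnfrsf12a, Tnfrsf13b, Tnfrsf14, Casp8, Map3k7, Fadd, the ligands at 0 and the single marker genes were named after their values were seen. The labels call the replicates biological, and p-values measure the spread between these pooled libraries. Starts in the Cufflinks table are counted from 0, since 7538 of 17762 genes then had the span of GENCODE M21, against 265 when counted from 1. Positions are given counted from 1. Of the marker genes, 1 is not reported here.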

Additional observations from a re-analysis of the deposited data

How the results depend on the processing

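Tnfsf12 and Tnfrsf11a kept their direction and their call in FPKM under all 16 alternatives. The number of members called rose from 2 to 4 with library quality weights and with the female libraries only, an alternative chosen after seeing the data, since Tnfrsf1b and Tnfrsf21 were then called, while calls over all genes rose from 3470 to 4703 and 4027. It was 3 with an FPKM minimum of 1 or none (Cd40 added), where 4323 of 9637 and 3876 of 21167 genes were called. It ranged from 2 to 4 when each library was left out in turn. It was 4 without BSM 1, where 3932 of 6364 genes were called. In ALEXA-Seq 1 member was called, beside 3050 of all genes tested. With no minimum it was 2 (Cd40 added), where 3285 of 22980 genes were called. It was 2 with every library scaled to the same sum and 5 with the female libraries only, beside 2771 and 4051 of all genes tested. When each library was left out it was 1 to 5, with 5 without BSM 1, where calls over all genes rose to 3984. Under same sum scaling Tnfrsf21 turned to −0.66 in ALEXA-Seq (adjusted p = 0.0450, limma). The count over the other family genes was 5 of 22 tested. With no minimum it was 8 of 50, where 3876 of 21167 genes were called. It was 9 with same sum scaling and 12 with library quality weights, beside 2555 and 4703 of all 6364 genes tested. It ranged from 3 (without BMDM 3) to 7 (without BSM 1), beside 2498 and 3932 of all genes tested. Traf6 turned to −0.041 with quantile normalization and −0.27 with same sum scaling. Settings that drop libraries or genes change what is tested by construction, and otherwise the cause was not tested.

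Replicate numbers are shared by the cell types. Deviations from the group means correlated at −0.02, −0.0084 and 0.13 for numbers 1, 2 and 3. With 3 libraries in each group, these values cannot tell whether libraries of the same number came from the same mice. With the replicate number as a block, 2 members were called in FPKM, 1 in ALEXA-Seq and 5 of the other family genes (Traf6 lost, adjusted p = 0.0606, limma, and Fadd gained), and 3471 against 3470 of all genes. Values under an FPKM of 1, as for Tnf, Tnfsf10, Tnfsf13b and Tnfrsf17, rest on a number of reads that is not given.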
